A study of Mus musculus with 2 samples.

Results

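The genes described here are 10 receptors and secreted molecules with which phagocytes take up particles, modified proteins and dying cells: Marco, Msr1, Cd36, Mrc1, Cd163, Siglec1, Axl, Mertk, Gas6 and Mfge8. They were taken by symbol from the gene list of 2 single-cell RNA libraries, and each symbol matched 1 row, so they are 10 of 27998 genes. The libraries came from whole lungs of male C57Bl/6J mice aged 3 months, 1 mouse labelled control and 1 mouse labelled fibrosis. Per the labels, 100 µg of TiO2 (a particle) or of crocidolite asbestos (a fibre that scars the lung) was placed in the trachea 14 days before harvest, and no label ties a particle to a mouse. The libraries are therefore called control and fibrosis. Perfused lungs were digested with dispase and DNase I, red cells were lysed and the suspension was run on the 10x Genomics 3′ V2 chemistry, with no sort and no gate stated.

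Scavenger receptors bind polyanions, oxidised lipids, glycans and carrier proteins, and macrophages use them to clear inhaled material and debris. Efferocytosis is the uptake of dying cells, whose exposed phosphatidylserine is bridged to the macrophage by secreted proteins: Gas6 links it to the receptor tyrosine kinases Axl and Mertk, and Mfge8 links it to alpha-v integrins. In the lung, alveolar macrophages lie in the airspace, and interstitial macrophages lie around vessels and airways, where a subset carries Lyve1 and Folr2.

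The promoters of the members differed in base composition, and 4 of them are shown because they stand at the low and the high end of CpG content (cytosine followed by guanine) and belong to genes with unlike cell patterns below. RefSeq windows on GRCm38.p6 were matched for 8 of the 10 members, and the window for Msr1 or Siglec1 is not shown. Each sequence is the 250 bases of the RefSeq window, 5′ to 3′ on the gene's strand, with every CpG in capitals. The windows do not all adjoin the GENCODE gene positions given below. That of Cd36 (17835897 to 17836146), counted below, lies inside the GENCODE span of the gene (17781690 to 17888801).
Marco, chr1:120505025-120505274, minus strand: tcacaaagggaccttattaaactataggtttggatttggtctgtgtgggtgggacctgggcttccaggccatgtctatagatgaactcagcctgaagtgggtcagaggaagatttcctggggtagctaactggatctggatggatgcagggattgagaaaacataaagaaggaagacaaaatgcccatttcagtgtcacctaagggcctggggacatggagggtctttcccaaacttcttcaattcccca
Cd163, chr6:124304401-124304650, plus strand: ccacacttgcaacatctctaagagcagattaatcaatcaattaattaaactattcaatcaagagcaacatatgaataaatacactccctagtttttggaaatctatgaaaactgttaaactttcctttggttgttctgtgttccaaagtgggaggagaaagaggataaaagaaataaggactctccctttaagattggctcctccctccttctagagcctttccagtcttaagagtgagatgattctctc
Gas6, chr8:13494536-13494785, minus strand: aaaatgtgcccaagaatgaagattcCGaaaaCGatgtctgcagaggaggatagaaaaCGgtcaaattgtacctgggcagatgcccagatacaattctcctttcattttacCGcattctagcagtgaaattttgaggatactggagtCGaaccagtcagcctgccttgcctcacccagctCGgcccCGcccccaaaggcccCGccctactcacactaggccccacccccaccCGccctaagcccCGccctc
Mfge8, chr7:79149061-79149310, minus strand: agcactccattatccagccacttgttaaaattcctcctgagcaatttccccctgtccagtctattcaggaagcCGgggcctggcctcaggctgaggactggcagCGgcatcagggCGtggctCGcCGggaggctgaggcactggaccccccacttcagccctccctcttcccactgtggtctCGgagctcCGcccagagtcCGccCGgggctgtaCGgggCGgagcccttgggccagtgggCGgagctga

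Marco and Cd163 held 0 CpG in these windows, Cd36 and Mrc1 held 3 each, Axl held 5, Mertk 7, Gas6 10 and Mfge8 12. Over 32851 windows of the same length the median was 6 CpG, 37.8% held 3 or fewer and 37.8% held 10 or more. The GC content ran from 36.8% in Cd163 to 65.2% in Mfge8, against a median of 52.4%. The letters GAGGAA, the core of a PU box bound by the macrophage factor PU.1, were searched on both strands. They occurred 3 times in the Mrc1 window and once each in those of Marco, Axl and Mfge8, and 23.3% of all windows held them. TGANTCA, the letters of an AP-1 site, was not found in any of the 8 windows and was in 6.75% of all windows. These are matches of letters in short windows, and no binding was measured.

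The control library held 8280 deposited cells with a median of 3783.5 UMIs (unique molecular identifiers, 1 per captured transcript), and the fibrosis library 7173 cells with a median of 4292. After filtering, 7510 and 6786 cells were kept and fell into 33 clusters, of which 24 carried the markers of 21 cell classes. Cluster names were rebuilt from transcripts, so each class is called "-like", and 7 mixed clusters entered no class. The clustering used neither the 10 members nor the listed pathway genes as variable genes. The classes that carry most results passed their marker check in both libraries: 627 control and 1018 fibrosis cells were alveolar macrophage-like, with all 10 markers detected, and 160 and 351 were interstitial macrophage-like, with all 9. Levels are CPM, the summed UMIs of a gene over the cells of a class scaled to a common class total. Ratios are log2 of fibrosis over control CPM, and brackets give exact 95% intervals. Each group is 1 mouse, so nothing here has a replicate check and no test between groups was possible. The intervals cover counting error only, and they are too narrow where a few cells hold most UMIs. A gene was counted as past 2-fold when it had at least 20 UMIs over both libraries of a class and a ratio of at least 2-fold. Droplets also hold free RNA: in T cell-like cells, which should lack these receptors, Cd36 stood at 17.2 CPM in the control mouse and 23.3 in the fibrosis mouse. Mfge8 stood there at 8.61 and 10.4 CPM, Gas6 at 4.59 and 7.36, and the other members at or under 6.74. The 2 libraries shared 89 barcodes.

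The members fell into different cells. In the plot of levels by class, Marco, Mrc1, Cd163, Siglec1, Axl and Mertk were highest in macrophage rows, while Gas6, Mfge8 and Cd36 were also high in structural cells. Marco, a collagen-like class A scavenger receptor that binds bacteria and inhaled particles, was held by alveolar macrophage-like cells, which had 81.5% of its UMIs in the control mouse and 84.1% in the fibrosis mouse. Msr1, the other class A receptor, had 70.0% of its control UMIs in classical monocyte-like cells, and 20.6% of its fibrosis UMIs there. Alveolar macrophage-like cells held 3.23% of Msr1 UMIs in the control mouse and 42.0% in the fibrosis mouse. The cell numbers behind these shares differed as well: classical monocyte-like cells numbered 1535 and 368. As a level, Msr1 stood at 55.3 and 64.7 in classical monocyte-like cells, at 46.9 and 50.4 in nonclassical monocyte-like cells and at 51.8 and 40.4 in interstitial macrophage-like cells. The intervals of these 3 classes overlapped within each library, and no order among them can be read.

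**Figure D1:**
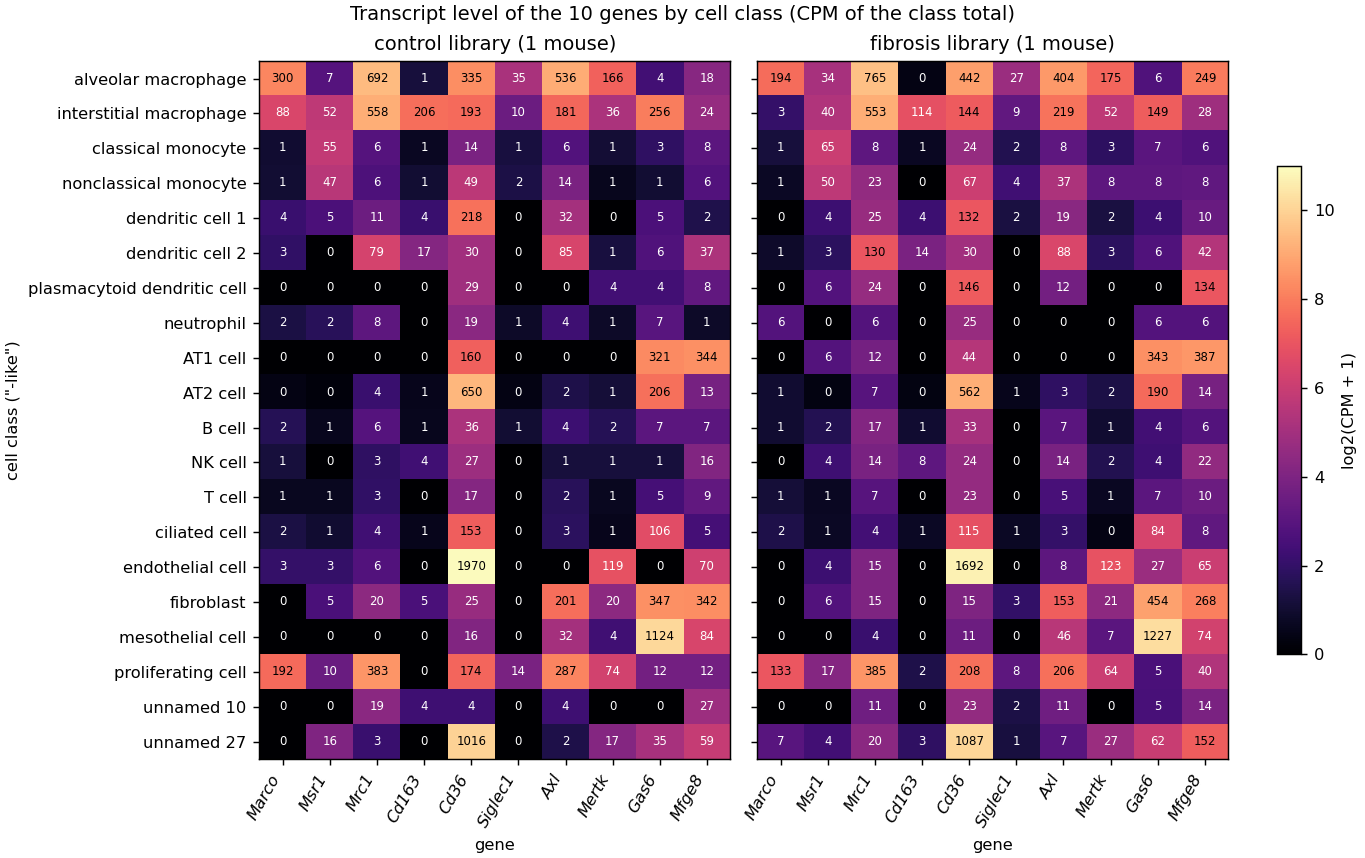
Levels of the 10 genes in 20 classes with at least 30 cells in each library; color is log2(CPM + 1), the printed numbers are CPM rounded to whole numbers, rows are cell classes and columns are genes, with the control library left and the fibrosis library right. Marco, Siglec1 and Mrc1 stand in macrophage rows, Cd163 in the interstitial macrophage row, Gas6 in the mesothelial row (1124 and 1227 CPM) and Cd36 in the endothelial row (1969.6 and 1692 CPM).

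Among the other scavenger receptors, Mrc1, the mannose receptor, was highest in alveolar macrophage-like cells (692 CPM in the control mouse and 765 in the fibrosis mouse) and next in interstitial macrophage-like cells (558 and 553). Proliferating cell-like cells followed at 383 and 385 CPM and type 2 dendritic cell-like cells at 78.9 and 130.3. Lymphatic endothelial cell-like cells were too few to enter this order. They had Mrc1 at 720 CPM in the control mouse (6 UMIs, 4 cells) and 298 in the fibrosis mouse (49 UMIs, 25 cells). Cd163, the receptor for haemoglobin bound to haptoglobin, had 77.3% of its UMIs in interstitial macrophage-like cells of the control library and 79.0% in those of the fibrosis library. In alveolar macrophage-like cells it was at 4 and 2 UMIs in all. Siglec1, a lectin that binds sialic acid, had 74.1% of its UMIs (control) and 78.0% (fibrosis) in alveolar macrophage-like cells and was a scarce transcript, at 34.8 and 26.6 CPM there. Cd36, a class B receptor for oxidised lipids and fatty acids, was highest in endothelial cell-like cells, at 1969.6 and 1692 CPM. A cluster led by Vwf, Lyve1 and Ptprb that was left unnamed (cluster 27) followed at 1016 and 1087, and AT2 cell-like (surfactant-producing) cells stood at 650.1 and 562. Because AT2 cell-like cells were many, they held 51.7% of all Cd36 UMIs in the control mouse and 48.9% in the fibrosis mouse.

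The receptors of dying cells were highest in alveolar macrophage-like cells, and their ligand Gas6 in mesothelial cell-like cells. Axl stood highest in alveolar macrophage-like cells, at 536 and 404 CPM, and was also present in interstitial macrophage-like cells at 181 and 219 and in fibroblast-like cells at 201 and 153, which are classes with Gas6. Mertk had 77.0% of its UMIs in alveolar macrophage-like cells of the control library and 79.3% in those of the fibrosis library. Its level there, 166 and 175 CPM, had an interval that overlapped that of endothelial cell-like cells, at 119 and 123 CPM. Interstitial macrophage-like cells stood lower, at 36.3 and 52.0 CPM. Gas6, the ligand of both, was at 4.27 and 5.80 CPM in alveolar macrophage-like cells, close to its level in T cell-like cells. Mesothelial cell-like cells had the highest Gas6 level, at 1124 and 1227 CPM, then fibroblast-like cells at 347 and 454 and AT1 cell-like (flat epithelial) cells at 321 and 343, which did not differ beyond their intervals. Interstitial macrophage-like cells were the one myeloid class with clear Gas6, at 256 and 149 CPM. AT2 cell-like cells, at 206 and 190.5 CPM, held 56.4% and 58.7% of all Gas6 UMIs. Mfge8 in the control library was highest in AT1 cell-like (344 CPM) and fibroblast-like cells (342 CPM), with 10.0% of its UMIs in alveolar macrophage-like cells. In the fibrosis library alveolar macrophage-like cells held 63.4% of all Mfge8 UMIs, and the AT1 cell-like and fibroblast-like levels were 387 and 268 CPM.

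In alveolar macrophage-like cells, Mfge8 and Msr1 were higher in the fibrosis library and Marco, Axl and Siglec1 were lower. Mfge8 stood at 18.4 CPM (56 UMIs) in the control mouse and 249 CPM (1458 UMIs) in the fibrosis mouse, a log2 ratio of 3.76 [3.37 to 4.17]. Msr1 stood at 6.57 CPM (20 UMIs) and 34.5 CPM (202 UMIs), a log2 ratio of 2.39 [1.73 to 3.13]. These were the 2 members past 2-fold among the 9 with enough UMIs, both higher, where 5.68% of 10247 genes were past 2-fold higher and 1.91% past 2-fold lower. The median log2 ratio was 0.15 over the 9 members and -0.07 over all genes tested. Marco stood at 300.4 CPM in the control mouse and 194 in the fibrosis mouse, a log2 ratio of -0.63 [-0.75 to -0.50]. Axl had a log2 ratio of -0.41 [-0.50 to -0.32], and Siglec1 one of -0.39 [-0.75 to -0.02]. Cd36 was at 335 CPM in the control mouse and 442 in the fibrosis mouse, a log2 ratio of 0.40 [0.30 to 0.51]. Mrc1 and Mertk differed least, with log2 ratios of 0.15 [0.07 to 0.22] and 0.07 [-0.08 to 0.23].

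**Figure D2:**
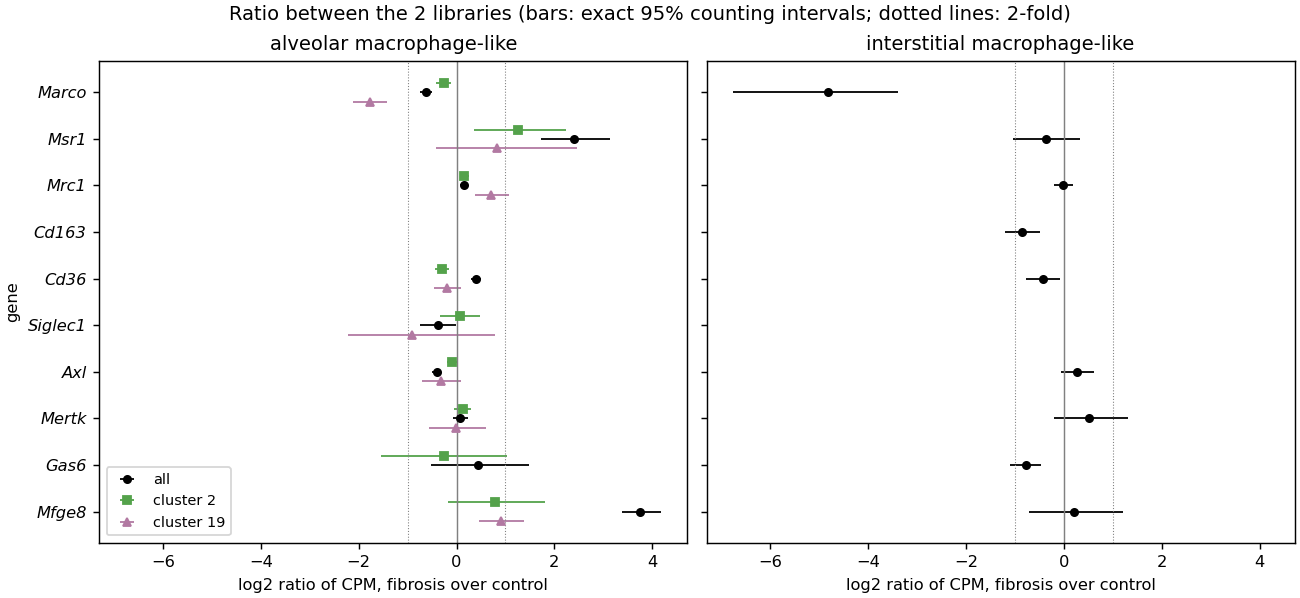
Log2 ratio of fibrosis over control CPM for genes with at least 20 UMIs over both libraries; points are ratios, bars are exact 95% counting intervals, dotted lines mark 2-fold, and in the alveolar macrophage panel circles are the whole class, squares cluster 2 and triangles cluster 19. Cd36 is above 0 in the whole class (0.40) and below 0 in each of its clusters (-0.29 and -0.20).

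The class held 2 clusters in unlike proportions, and several of these ratios changed within them. Cluster 2, led by Fabp1, Ear1 and Krt79, had 599 control and 582 fibrosis cells. Cluster 19, led by Mmp12, Spp1 and Arg1 and with 8 of the 10 alveolar macrophage markers raised, had 28 control cells (4.47% of the class [2.99% to 6.39%]) and 436 fibrosis cells (42.8% [39.8% to 45.9%]). Mfge8 was itself among the 10 genes that lead cluster 19, although it was not used for clustering.

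The contrast between the clusters was larger for Mfge8 than for any other member in the fibrosis library, where it stood at 8.97 CPM in cluster 2 and 484 CPM in cluster 19. The log2 ratio of cluster 19 over cluster 2 was 5.75 [5.19 to 6.37] there. Msr1 stood at 12.4 and 56.0 CPM, a log2 ratio of 2.17, and Cd36 at 257 and 623 CPM, a log2 ratio of 1.28. Siglec1 was lower in cluster 19, at 36.6 against 16.9 CPM, as were Axl at 511 against 299 and Marco at 240.2 against 150 CPM. Mertk stood at 180.5 and 169 CPM and Mrc1 at 787 and 745 CPM, and their intervals included equal levels. In the fibrosis library 4 of 9 members (Msr1, Cd36, Gas6 and Mfge8) were past 2-fold higher in cluster 19 and Siglec1 past 2-fold lower, where 5.18% and 4.34% of 9612 genes were. Gas6 rested on 11 and 23 UMIs, and its interval included equal levels.

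In the control library cluster 19 had only 28 cells, but 3 of 8 members were past 2-fold higher in it, where 7.17% of 8223 genes were higher and 18.6% lower. Those were Mfge8 (5.20 and 259 CPM), Msr1 (5.20 and 31.6 CPM, on 15 and 5 UMIs) and Cd36 (314 and 714 CPM). Of the 41 Mfge8 UMIs in the control cells of cluster 19, 28 lay in 1 cell. Marco did not keep its direction between the libraries: in the control it was higher in cluster 19, at 512 against 289 CPM, and in the fibrosis library lower. The 81 control UMIs of Marco in cluster 19 lay in 12 cells, 10 of which held 97.5% of them.

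**Figure D3:**
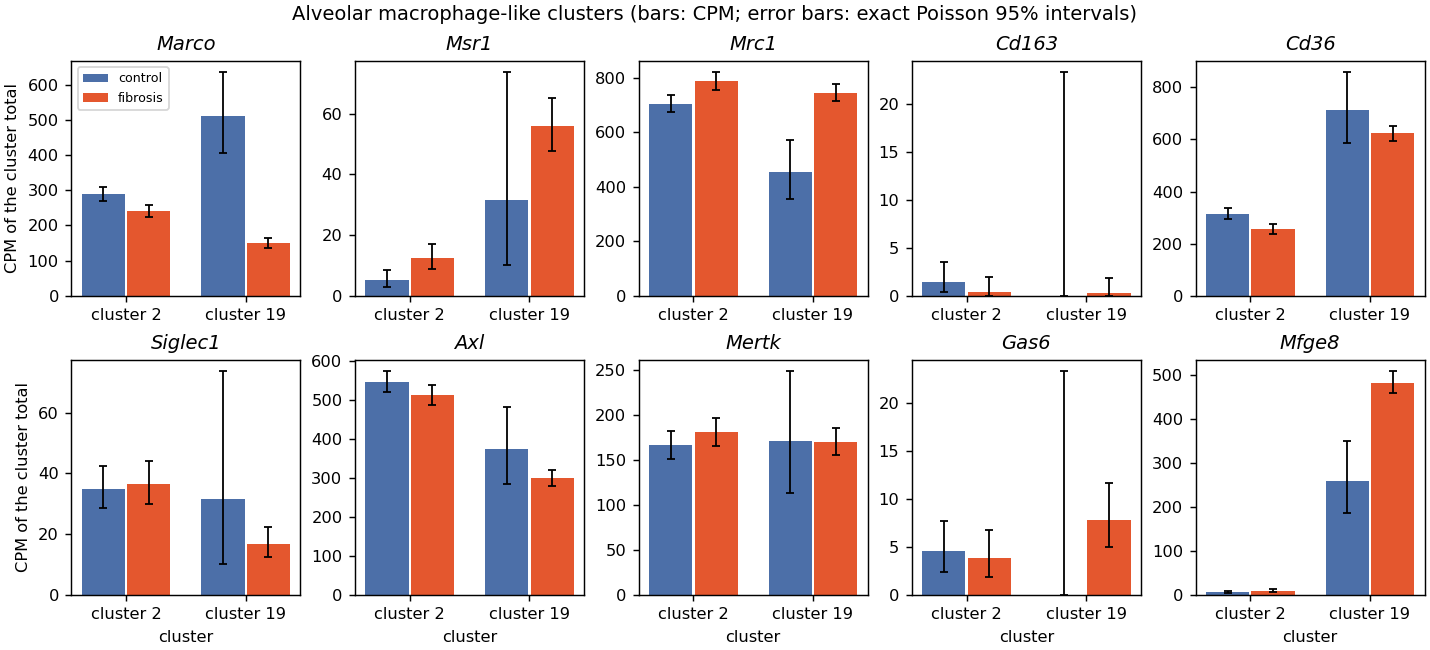
Level of each gene in CPM (vertical axis, from 0, with a scale of its own for each gene) in clusters 2 and 19 of alveolar macrophage-like cells, blue for the control and red for the fibrosis library; error bars are exact Poisson 95% intervals. Mfge8 is at 5.20 and 8.97 CPM in cluster 2 and at 259 and 484 CPM in cluster 19, and the control bars of cluster 19 rest on 28 cells.

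Within the clusters the ratios differed from those of the class. Cd36 was lower in the fibrosis library in cluster 2 (log2 ratio -0.29 [-0.43 to -0.15]) and had a log2 ratio of -0.20 [-0.47 to 0.09] in cluster 19, while in the class as a whole it was higher. The value in cluster 19 was 0.01 with the cell richest in Cd36 left out of each library, so its sign rests on 1 cell. Mfge8 had a log2 ratio of 0.79 [-0.18 to 1.81] within cluster 2 and 0.90 [0.45 to 1.39] within cluster 19, against 3.76 in the class. With the richest cell left out of each library, the Mfge8 value in cluster 19 was 2.30 [1.52 to 3.21], on 13 control UMIs. Msr1 had 1.26 [0.35 to 2.23] in cluster 2 and 0.83 [-0.42 to 2.47] in cluster 19, against 2.39, and without the richest cells the second was 1.47 [-0.11 to 3.76]. These cluster 19 values rest on few control UMIs. Axl had -0.09 [-0.20 to 0.01] in cluster 2 and -0.32 [-0.70 to 0.09] in cluster 19. Siglec1 had 0.06 [-0.34 to 0.47] and -0.90 [-2.22 to 0.78], the second on 5 control UMIs. Marco was lower in the fibrosis library in both clusters, with log2 ratios of -0.27 [-0.41 to -0.12] and -1.77 [-2.12 to -1.41], and with the cell richest in Marco left out of each library the second was -1.49. Mrc1 was higher in the fibrosis library in both, at 0.16 [0.07 to 0.25] and 0.71 [0.37 to 1.07].

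Mfge8 transcripts were unevenly spread over the cells of cluster 19. In the fibrosis library 161 of its 436 cells had a Mfge8 UMI, the richest cell held 221 of 1432 UMIs (15.4%), and 10 cells held 51.0%. The spread plot shows how unlike this is to the other members drawn for the same class. For each gene, the 10 richest of 1018 cells held 50.1% of Mfge8, 3.90% of Mrc1, 12.9% of Cd36, 16.4% of Marco and 18.8% of Msr1 UMIs. For the scarce Gas6, which is not drawn, 10 cells held 32.4% of 34 UMIs. Leaving out the richest cell of each library moved the class log2 ratio of Mfge8 from 3.76 to 4.52, since the control cell held 28 of the 56 control UMIs. Msr1 went from 2.39 to 2.49.

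**Figure D4:**
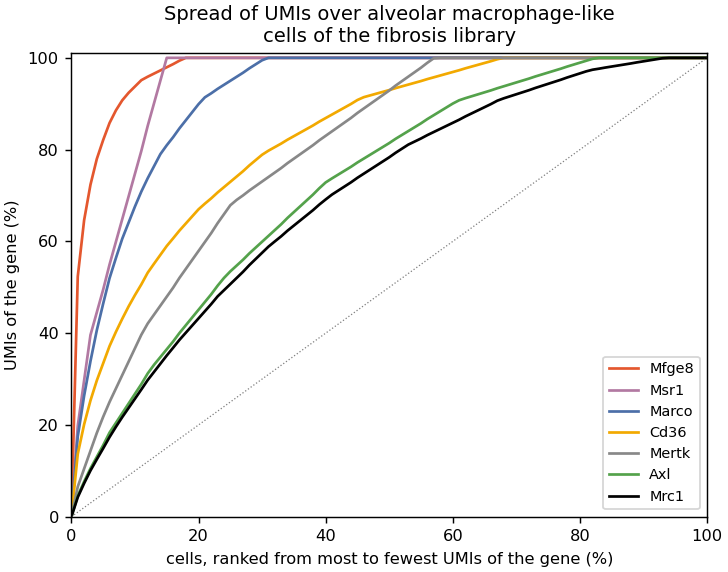
Cumulative share of a gene's UMIs (vertical axis, percent) over the fibrosis library's alveolar macrophage-like cells ranked from most to fewest UMIs of that gene (horizontal axis, percent of 1018 cells); the dotted line is an even spread. Of the 7 genes drawn, which leave out the scarce Gas6, Siglec1 and Cd163, Mfge8 lies highest over the first 10% of cells, with 50.1% of its UMIs in 10 cells, and Mrc1, found in 93.4% of cells, runs closest to the dotted line.

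The cells of cluster 19 were also described by their Mfge8 UMIs in the fibrosis library, as a range and not as types: 275 cells had 0, 132 had 1 to 9 and 29 had 10 or more. Marco stood at 199.9, 107 and 16.8 CPM in these 3 bins, and Axl at 341, 307 and 81.2 CPM. Mrc1 stood at 815, 766 and 353 CPM, while Cd36 stood at 460, 669 and 1287 CPM. Thus Cd36 was highest, and Marco, Axl and Mrc1 lowest, in the cells with the most Mfge8. Msr1 had 49.4 [39.4 to 61.1], 55.3 [41.1 to 73.0] and 89.6 [61.3 to 126.4] CPM, so the intervals of neighbouring bins overlapped. Mertk had 166, 174 and 174 CPM. Depth moved with the bins, with median totals of 5704, 6735.5 and 8872 UMIs, and a cell with more UMIs is more likely to reach 10 of any gene. Markers of other classes were measured in the same bins. The 10 alveolar macrophage markers together stood at 59392, 64475 and 36569 CPM, with none at 0. The 9 interstitial macrophage markers, C1q genes included, stood at 715, 941 and 2183 CPM. The 7 AT1 markers stood at 116, 133 and 263 CPM with 2 of them at 0 in the last bin, and the 7 fibroblast markers at 12.3, 28.8 and 8.40 CPM with 4 at 0 there. The part of these markers in the Mfge8 pattern was not tested.

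In interstitial macrophage-like cells, Cd163, Gas6 and Cd36 were lower in the fibrosis library, and Mrc1 was alike. Cd163 stood at 206 CPM (119 UMIs in 52 cells) in the control mouse and 114 CPM (147 UMIs in 65 cells) in the fibrosis mouse, a log2 ratio of -0.85 [-1.21 to -0.49]. Gas6 stood at 256 and 149 CPM, a log2 ratio of -0.78 [-1.09 to -0.46], and Cd36 at 193 and 144 CPM, a log2 ratio of -0.42 [-0.77 to -0.07]. Mrc1 had a log2 ratio of -0.01 [-0.20 to 0.18]. Msr1 had -0.36, Axl 0.27, Mertk 0.52 and Mfge8 0.21, and their intervals included 0. With the richest cell left out of each library, Axl had 0.38 [0.03 to 0.73] and Mertk 0.81 [0.003 to 1.70], which left out 0. Msr1 and Mfge8 then had -0.35 and 0.19, with intervals that still included 0. For Axl and Mertk the control cell left out was the one described next, with 12 of 105 and 5 of 21 control UMIs. Of 9 members with enough UMIs, 1 was past 2-fold lower, which was Marco, where 3.14% of 7168 genes were past 2-fold lower and 4.95% past 2-fold higher. The median was -0.37 over the 9 members, with Marco included, and -0.04 over all genes tested. A median without Marco was not computed.

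The Marco value rests on 1 cell. All 51 Marco UMIs of the 160 control cells lay in a single cell of 16350 UMIs, and the 351 fibrosis cells held 4 Marco UMIs. The same cell held all 46 UMIs of Cd5l in the control class (a scavenger protein secreted by macrophages) and 12 of its 16 UMIs of Timd4, a phosphatidylserine receptor. It carried 46 UMIs of C1qa, 17 of Folr2, 12 of Axl, 5 of Mertk and 6 of Gas6. Of the 10 alveolar macrophage markers it had only Chil3, with 3 UMIs. Without the richest cell of each library Marco was at 0 UMIs in the control mouse and 2 in the fibrosis mouse, and no member was past 2-fold in the class.

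Cells were then divided by whether they had a UMI of Lyve1 or Folr2, markers of macrophages along vessels that are not members. This is a threshold on a count, and 16 of the 62 control cells and 31 of the 80 fibrosis cells past it had exactly 1 such UMI. The cells past it were 38.8% of interstitial macrophage-like cells in the control mouse and 22.8% in the fibrosis mouse, with median totals of 3344.5 and 3079.5 UMIs. Cd163 stood at 398 CPM with and 82.2 CPM without such a UMI in the control, and at 395 and 43.7 CPM in the fibrosis library. Gas6 stood at 487 and 108 CPM in the control mouse and at 418 and 81.6 CPM in the fibrosis mouse. Cd163 was thus 4.85-fold and 9.04-fold higher in cells with the UMI, and Gas6 4.52-fold and 5.13-fold.

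Mrc1 followed the same division, at 995 against 278 CPM in the control mouse and 1212 against 387 in the fibrosis mouse. Cd36 did so as well, at 309.7 against 119 CPM and 225 against 124 CPM. Axl went the other way in the fibrosis library, at 136 against 239.9 CPM. In the control the interval of its ratio included equal levels, at 146 against 204 CPM. The single cell described above, with 17 Folr2 UMIs, lay among the control cells with the UMI. It held 12 of their 33 Axl UMIs, and the ratio without it was not computed. Within the cells with a Lyve1 or Folr2 UMI, the libraries had almost the same Cd163 level, a log2 ratio of -0.01 [-0.43 to 0.41], and Gas6 had -0.22 [-0.61 to 0.18]. Without the UMI, Cd163 had -0.91 [-1.62 to -0.19], Gas6 -0.40 [-0.97 to 0.19] and Cd36 0.06 [-0.45 to 0.60]. Mrc1 was higher in the fibrosis library in both sets, at 0.28 [0.03 to 0.54] and 0.48 [0.16 to 0.81], although it was equal in the whole class. Mertk was higher among cells without the UMI, on 6 and 50 UMIs (log2 ratio 1.51 [0.29 to 3.03]). With the UMI it had -0.01 [-1.10 to 1.09], on 15 and 17 UMIs, and that single cell held 5 of the 15. The difference between the sets was not tested.

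**Figure D5:**
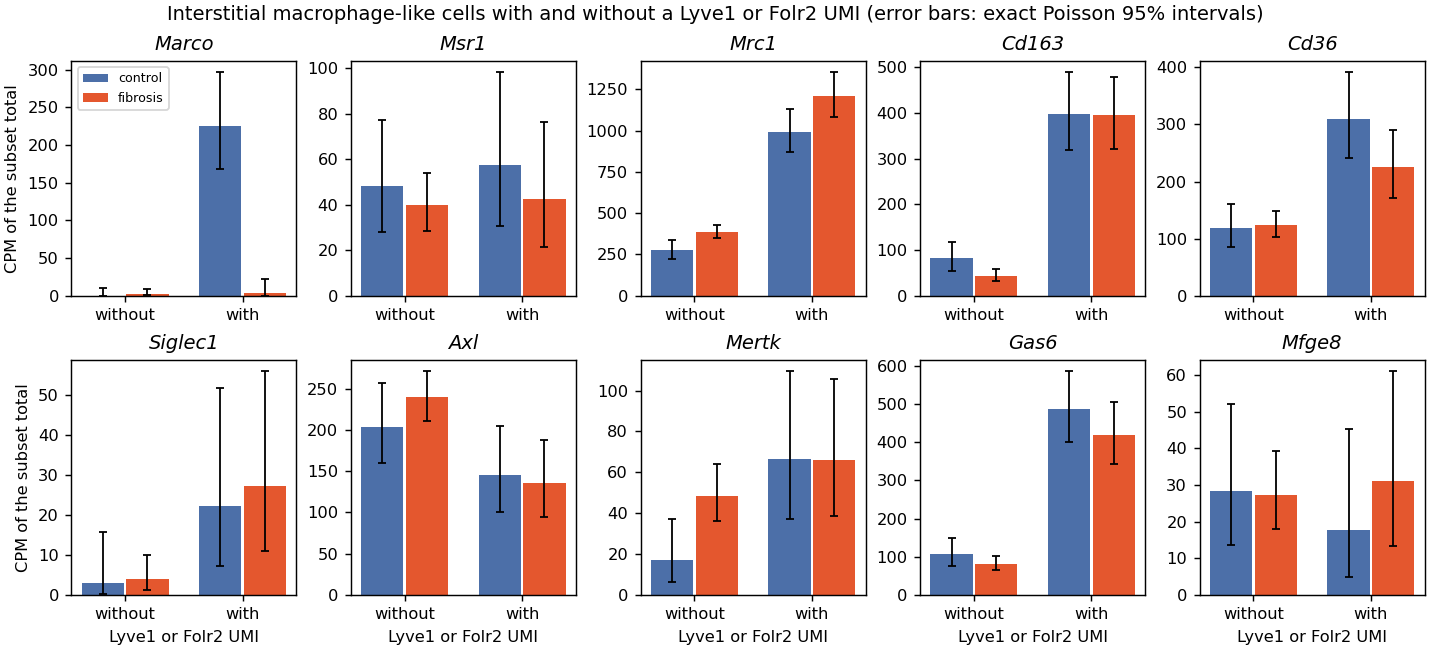
Level of each gene in CPM (vertical axis, from 0, with its own scale) in interstitial macrophage-like cells without and with a Lyve1 or Folr2 UMI, blue for the control and red for the fibrosis library; error bars are exact Poisson 95% intervals. Cd163 is at 398 and 395 CPM with the UMI and at 82.2 and 43.7 CPM without, and the tall Marco bar is 1 control cell.

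Another way of assigning cells changed several of these values. Every cell was assigned on its own markers in place of its cluster. Mfge8 in interstitial macrophage-like cells then had a log2 ratio of 3.22 (22.2 and 207 CPM), and Cd36 had 0.60, the opposite sign. Cd163 (194.7 and 97.2 CPM) was then past 2-fold lower, Mertk (30.7 and 66.4 CPM) past 2-fold higher, and Msr1 stood at 52.9 and 56.5 CPM. Alveolar macrophage-like levels moved as well. Mfge8 stood there at 17.1 and 177 CPM, against 18.4 and 249 by cluster. Cd36 stood at 323 and 370 CPM, against 335 and 442, and Marco at 299 and 219, against 300.4 and 194. Mrc1 stood at 683 and 799.7 CPM, against 692 and 765. Under that rule 778 of 14296 cells lay within 0.1 of the border between their first and second class.

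Monocytes and dendritic cells carried few members. In classical monocyte-like cells Gas6 was past 2-fold higher in the fibrosis library, at 2.81 and 7.19 CPM, where 4% of 9548 genes were higher and 3.77% lower, but both values are near the T cell-like level. Cd36 stood at 14.0 and 24.2 CPM there, also near it. In nonclassical monocyte-like cells 2 of 5 members were past 2-fold higher, where 3.71% of 7812 genes were, and 2.19% were lower. Axl stood at 14.4 CPM (26 UMIs) and 37.3 CPM (54 UMIs), a log2 ratio of 1.38 [0.68 to 2.11]. Mrc1 stood at 5.52 CPM (10 UMIs) and 22.8 CPM (33 UMIs), a log2 ratio of 2.05 [0.99 to 3.23]. Its control value lay within the range given above for members in T cell-like cells. Under other processing the Mrc1 ratio ran from 0.96 (mitochondrial limit of 5%) to 4.19 (clustering resolution 2). That of Axl ran from 0.26 (each cell gated on its own markers) to 1.61 (equal doublet rule).

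In type 2 dendritic cell-like cells Axl was alike at 84.7 and 87.7 CPM, and Mrc1 stood at 78.9 and 130.3 CPM, a log2 ratio of 0.72 [0.27 to 1.19]. In type 1 dendritic cell-like cells Cd36 was lower in the fibrosis library, at 218 and 132 CPM, a log2 ratio of -0.72 [-1.06 to -0.38]. Mrc1 was there past 2-fold higher on 6 and 33 UMIs, where 4.51% of 6459 genes were higher and 3.25% lower, and its interval included 0. Of the 33 fibrosis UMIs, 31 lay in 10 cells. With the richest cell left out of each library, Mrc1 had 2.36 [0.35 to 5.49], on 2 and 24 UMIs. In plasmacytoid dendritic cell-like cells Mfge8 and Cd36 were past 2-fold higher, where 3.2% of 2657 genes were higher and 6.62% lower, but 20 of the 22 fibrosis UMIs of Mfge8 and 15 of the 24 of Cd36 lay in 1 cell each. Without the richest cell of each library Cd36 stood at 21.3 and 59.0 CPM, on 5 and 9 UMIs, under the minimum of 20.

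In structural cells most members named here differed by less than 2-fold between the libraries, apart from Cd36 in AT1 cell-like cells and Mfge8 in cluster 27. Cd36 had log2 ratios of -0.22 [-0.40 to -0.04] in endothelial cell-like and -0.21 [-0.27 to -0.15] in AT2 cell-like cells. AT1 cell-like cells had Cd36 past 2-fold lower, where 4.34% of 2696 genes were lower and 5.3% higher, on 28 and 7 UMIs, and 8 control cells held the 28. Gas6 had 0.13 [-0.10 to 0.36] in mesothelial, 0.39 [-0.03 to 0.82] in fibroblast and -0.11 [-0.22 to -0.01] in AT2 cell-like cells. Mfge8 had 0.17 [-0.37 to 0.71] in AT1 and -0.35 [-0.82 to 0.13] in fibroblast-like cells. The unnamed cluster 27 had Mfge8 at 58.8 CPM (34 UMIs) and 152 CPM (108 UMIs), past 2-fold higher where 5.45% of 7246 genes were, and 4.6% were lower. Those 108 UMIs lay in 75 of 161 cells, and the richest held 5. Proliferating cell-like cells had the members of alveolar macrophages, with Mrc1 at 383 and 385 CPM and Axl at 287 and 206. Mfge8 was past 2-fold higher in them on 6 and 47 UMIs, where 4.62% of 7356 genes were higher and 4.01% lower. In B cell-like cells Mrc1 was past 2-fold higher on 12 and 16 UMIs, where 3.79% of 7580 genes were higher and 2.88% lower. Without the richest cell of each library it had 11 and 10 UMIs there, a log2 ratio of 0.84 [-0.55 to 2.22], under 2-fold.

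The shares of cells with a UMI gave the same picture at lower resolution. In alveolar macrophage-like cells 90.4% of control and 93.4% of fibrosis cells had a Mrc1 UMI, 85.6% and 82.5% had Axl, and 50.7% and 57.2% had Mertk. Both TAM receptors together were found in 44.7% and 49.1% of cells. Marco was found in 39.1% and 30.6% of cells, although it is a defining receptor of this cell, and Msr1 in 2.87% and 15.0%. Only 5 control and 45 fibrosis cells had both class A receptors. Mfge8 was found in 3.67% of control and 18.0% of fibrosis cells. Among T cell-like cells the highest of these shares was that of Mfge8, at 2.42% and 2.81%, and those of Mrc1, Axl, Mertk, Marco and Msr1 were at or under 1.93%. The median totals were 4664 and 5234 UMIs in alveolar macrophage-like cells and 2661 and 2657 in T cell-like cells. With every cell thinned to 1000 UMIs, Mfge8 was found in 0.478% and 7.37% of alveolar macrophage-like cells and in 0.969% and 1.41% of T cell-like cells. Msr1 was then found in 0.797% and 2.75%, Marco in 17.2% and 12.9%, Axl in 44.0% and 33.3% and Mertk in 14.5% and 14.7%. The control share of Mfge8 did not stand above that of T cell-like cells after thinning.

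In interstitial macrophage-like cells Cd163 was found in 32.5% and 18.5% of cells, and 51 of the 52 control cells and 56 of the 65 fibrosis cells with Cd163 also had Mrc1. Gas6 was found in 44.4% and 30.5%, and Mrc1 in 71.9% and 70.9%. No T cell-like cell had a Cd163 UMI, of 619 and 569, and Gas6 was found in 1.29% and 2.11% of them. Median totals were 3270.0 and 3263 UMIs in the interstitial class. After thinning, Cd163 was found in 15.6% and 9.40% and Gas6 in 21.9% and 14.0% of interstitial macrophage-like cells.

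Other genes of the same pathways were described from lists. Over all genes tested, 5.68% were past 2-fold higher and 1.91% lower in alveolar macrophage-like cells (median -0.07), and 4.95% higher and 3.14% lower in interstitial macrophage-like cells (median -0.04). Of other scavenger receptors, 2 of 11 were past 2-fold higher in alveolar macrophage-like cells, Cxcl16 (4.93 and 69.8 CPM), which binds oxidised lipid in its membrane form, and Colec12. The median of that list was 0.10. In interstitial macrophage-like cells 2 of 11 were past 2-fold lower, Cd5l, from the single cell above, and Colec12, on 15 and 16 UMIs with an interval that included 0, and the median was -0.35. Of other efferocytosis receptors and bridging molecules, 5 of 13 were past 2-fold higher in alveolar macrophage-like cells, with a median of 0.92. They were C1qa (8.22 and 141 CPM), C1qb (6.24 and 140.1 CPM) and C1qc (7.56 and 98.1 CPM), which encode the complement opsonin C1q, Trem2, a lipid receptor (85.8 and 229.7 CPM), and Thbs1, on 3 and 17 UMIs. The interval of Thbs1 included 0, at 1.56 [-0.23 to 3.97]. The 3 C1q genes are also markers of the interstitial class, and their levels there were 6608, 5528 and 4705 CPM in the control library. In interstitial macrophage-like cells 1 of the 13 was past 2-fold lower, Timd4, of whose 16 control UMIs 12 lay in the same single cell, and the median was -0.12.

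The machinery that engulfs and digests cargo had no gene past 2-fold in either class, of 15 tested, with medians of 0.05 in alveolar and -0.10 in interstitial macrophage-like cells. Inhibitory signals such as Cd47 and its receptor Sirpa had none of 8 and none of 7, with medians of 0.01 and -0.07. Of the genes of perivascular macrophages, 6 of 8 were past 2-fold lower in interstitial macrophage-like cells, where 3.14% of all genes were, with a median of -1.14 against -0.04. They include Cd209f (199 and 44.3 CPM), Cd209g (67.4 and 15.5 CPM), Cbr2 (439 and 198 CPM), Lyve1 (89.8 and 41.2 CPM) and Folr2. The other is Timd4, which rests on that single cell. The cell also held 17 of the 185 control UMIs of Folr2, which was 2.10-fold lower, and 21 of the 254 of Cbr2, which was 2.22-fold lower. Their ratios without that cell were not computed. The 115 control UMIs of Cd209f and the 39 of Cd209g lay in 15 of 160 cells each. The levels of Cd163 and Gas6 moved with the perivascular genes in the same class. The part of the perivascular genes in those 2 ratios was not tested beyond the division by Lyve1 or Folr2. In alveolar macrophage-like cells Lyve1 was past 2-fold higher, on 6 and 29 UMIs, of 3 tested, with a median of -0.02.

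Genes with the most similar levels over the 20 classes were found for each member by Pearson correlation of log2(CPM + 10), as a description over classes that share libraries and free RNA. The lower of the 2 libraries' values is given. Cd163 was most like Fcrls (0.934) and Cxcl13 (0.932), and Siglec1 most like Clec4n, a lectin receptor for fungi (0.923), and Prune2 (0.914). Marco was most like Gdf15 (0.894) and Tfec (0.888), Msr1 most like the Fc receptor Fcgr1 (0.909) and Trem2 (0.892), and Mrc1 most like Ltc4s (0.912) and Prune2 (0.904). Axl was most like Egr2 (0.844) and Mrc1, another member (0.840), while Mertk was most like Pald1 (0.902). Gas6 was most like Ltbp3 (0.931) and Rnase4 (0.910). Cd36 and Mfge8 had the lowest values, with Afap1l1 (0.792) and Adgrl2 (0.776) for Cd36 and Creb3l2 (0.786) and Slc39a13 (0.785) for Mfge8.

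The members lie apart in the genome, on GRCm38 positions of GENCODE M21, all as protein-coding genes. Marco is on chromosome 1 (120474538 to 120505024), Mfge8 on chromosome 7 (79133768 to 79149060) and Cd163 on chromosome 6 (124304656 to 124330527). Gas6 and Msr1 share chromosome 8, at 13465374 to 13494490 and 39581685 to 39642673. Axl is on chromosome 7, Cd36 on chromosome 5, and Mrc1, Mertk and Siglec1 are on chromosome 2.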

How the data were processed

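The deposited values were raw counts of UMIs per gene and cell, unnormalised per the file headers, made with bcl2fastq and Cell Ranger 1.3 on mm10 per the submitters' processing notes; the annotation is not given in the sources used here. Both tables list 27998 genes. Deposited cells started at 1460 UMIs (control) or 1915 (fibrosis), and all cells summed to 36632591 and 38090308 UMIs, which sets the counting precision. The members and lists were chosen with earlier results of these data known.

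Cells with under 200 genes or over 10% mitochondrial UMIs were left out. Doublets were scored with scrublet in scanpy 1.11.5; its threshold marked 15 control cells (0.187%), too few, so the 515 with the highest scores (6.42%) were removed there, and 159 (2.29%) in the fibrosis library by threshold. Of the 89 barcodes that both libraries hold, 75 were among kept cells. Counts scaled to 10000 per cell and log-transformed gave 2000 variable genes, 30 principal components, 15 neighbours and Leiden clusters at resolution 1 (python-igraph 0.11.9); no batch term was used. Names came from marker lists: at least 3 markers raised 2-fold with a mean log2 excess of 1. Clusters where a type of another lineage reached 33% of the first, or one of the same lineage 80%, were mixed; these limits were chosen with the clusters in view. Of the marker and list symbols, 4 had no match and are not analysed here. Classes with at least 30 cells in each library entered.

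Class sums were scaled to CPM, with exact Poisson, Clopper-Pearson and conditional binomial 95% intervals (scipy 1.17.1), checked on simulated counts. With 1 library per group there is no test. Named were all members, listed genes with at least 20 UMIs and 2-fold (at most 6 per class by size, others only where a count is 5 or fewer or for their part in a division), and the 2 genes most like each member, of which 1 is not reported here. Alternatives changed class assignment, clustering, filters, doublets, scaling, fold and the count minimum; leaving out the richest cell and the 2 settings with class calls kept were added after the data were seen.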

Additional observations from a re-analysis of the deposited data

Results flagged for a closer look

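Cd36 differed between the libraries in opposite directions in the 2 macrophage classes. Its log2 ratio of fibrosis over control was 0.40 in alveolar macrophage-like and -0.42 in interstitial macrophage-like cells, and both counting intervals left out 0. With 1 mouse per group the difference between the classes was not tested. The opposite directions depended on how cells were assigned. With each cell gated on its own markers, Cd36 was higher in the fibrosis library in both classes. It then stood at 323 and 370 CPM in alveolar and 181 and 275 CPM in interstitial macrophage-like cells. With the same doublet share removed in both libraries and reclustering, the alveolar log2 ratio was -0.29. Within clusters 2 and 19 of the alveolar class the log2 ratios were -0.29 and -0.20, and the second was 0.01 with the cell richest in Cd36 left out of each library. Among interstitial macrophage-like cells without a Lyve1 or Folr2 UMI the log2 ratio was 0.06, and with one it was -0.46.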

How the results depend on the processing

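Of the recomputed log2 ratios of single members, 393 stayed within the counting interval of the reported value and 37 moved outside it. Sign changed in 6 whose interval left out 0, and in 36 others whose interval included 0, 30 of them inside that interval. With each cell gated on its own markers, Cd36 had 0.60 in interstitial macrophage-like and -0.16 in nonclassical monocyte-like cells, and 4 members were past 2-fold in the interstitial class (Marco, Cd163, Mertk and Mfge8) in place of 1. With the median ratio of the other classes subtracted, Marco in alveolar macrophage-like cells had 1.98, where the other classes were only 2 and 1 of them was the interstitial class with its single cell, Mrc1 had -0.57, and 2 members were past 2-fold in the interstitial class. With the same doublet share removed in both libraries, reclustering merged the Mmp12-led cells with proliferating cells and left them unnamed. Alveolar macrophage-like cells then lacked them, with 1 member past 2-fold, Cd36 at -0.29, Siglec1 at 0.082, Msr1 at 1.37 and Mfge8 at 0.58. With the class calls kept, the same removal gave 0.42 for Cd36 and 3.79 for Mfge8. A mitochondrial limit of 5% gave 2 members past 2-fold in the interstitial class and 5.19 for Mfge8 in the alveolar class, a mean over cells gave 2.93 for the latter, a fold of 1.5 gave 3 in the interstitial class, and leaving out the richest cell gave 0. The cause was not tested except where the construction shows it.

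No paired analysis was possible because each group has 1 mouse, so leaving out a replicate was not an option either. Members under 20 UMIs in a class, such as Cd163 in alveolar and Siglec1 in interstitial macrophage-like cells, were not compared at this depth, and levels near those of T cell-like cells cannot be told apart from free RNA.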
